A study of Mus musculus with 23 samples.

Results

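Enteroendocrine cells are scattered hormone-secreting cells of the gut epithelium, and 10 of their genes were followed in mouse colon over 6 days of dextran sulfate sodium (DSS), a polysaccharide that injures the colon epithelium. The genes were Gcg, Pyy, Insl5, Chga, Chgb, Sct, Sst, Tph1, Cck and Neurod1, taken by gene symbol from the platform annotation. They are 10 of the 18194 genes with a probe set of a single symbol, and all 10 passed the filter on low signal that left 12463 genes for testing. Neurod1 had 2 probe sets and the other genes 1 each. Colon RNA came from C57BL/6J mice aged 12 to 14 weeks, with 1 array per animal. Untreated mice (day 0, n = 5) and mice that drank 3% DSS for 2, 4 or 6 days (n = 6 each) formed separate cohorts, so every difference between days is a difference between animals. Which segment and which layers of the colon were taken is not stated in the labels.

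Each enteroendocrine subtype makes its own set of hormones. L cells of the colon express Gcg, whose product is cut to glucagon-like peptides, Pyy, which encodes peptide YY, and Insl5, an insulin-like peptide. Enterochromaffin cells make serotonin through Tph1, D cells make somatostatin (Sst), and Sct and Cck encode secretin and cholecystokinin. Chga and Chgb encode chromogranins, proteins of the secretory granules that many of these cells share, and Neurod1 encodes a transcription factor of their differentiation.

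The promoters of 6 of these genes are shown. The transcripts of Gcg, Insl5, Chgb, Sct and Tph1 changed between days. Pyy varied with Insl5 between animals, and Chgb with Sct and Tph1. Cck and Sst also changed between days, and their promoters are counted below but not shown. Sequences are the 250 bases upstream of a RefSeq transcript start in GRCm38.p6, written 5′ to 3′ on the gene's strand, and RefSeq had an entry for all 10 genes. Capitals mark CAGATG, an E-box variant bound by proneural factors such as Neurod1, TATAAA, the letters of a TATA box, or TGACGTCA, those of the cyclic AMP response element. Matches on either strand and at any distance from the start are marked. Gcg lies on the minus strand (chr2:62483654-62483903), as do both starts of Insl5 (chr4:103027272-103027521 upstream and chr4:103026729-103026978 downstream), the upstream start of Pyy (chr11:102107833-102108082), Sct (chr7:141279134-141279383) and the upstream start of Tph1 (chr7:46672538-46672787). Chgb lies on the plus strand (chr2:132781392-132781641).
Gcg: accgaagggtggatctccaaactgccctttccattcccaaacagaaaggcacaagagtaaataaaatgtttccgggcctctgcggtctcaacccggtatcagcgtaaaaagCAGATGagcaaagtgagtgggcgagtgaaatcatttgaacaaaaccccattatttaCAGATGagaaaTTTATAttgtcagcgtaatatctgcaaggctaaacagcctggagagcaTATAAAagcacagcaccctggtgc
Insl5, upstream start: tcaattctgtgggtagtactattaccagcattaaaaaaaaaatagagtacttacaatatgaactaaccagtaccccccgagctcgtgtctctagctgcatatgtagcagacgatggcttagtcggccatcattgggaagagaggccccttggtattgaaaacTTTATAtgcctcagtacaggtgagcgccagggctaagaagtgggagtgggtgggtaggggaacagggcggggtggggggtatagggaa
Insl5, downstream start: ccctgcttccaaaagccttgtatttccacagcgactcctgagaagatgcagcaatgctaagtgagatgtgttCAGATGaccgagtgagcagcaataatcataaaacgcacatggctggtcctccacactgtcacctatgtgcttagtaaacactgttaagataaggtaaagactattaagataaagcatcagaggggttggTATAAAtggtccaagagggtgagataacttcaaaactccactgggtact
Pyy: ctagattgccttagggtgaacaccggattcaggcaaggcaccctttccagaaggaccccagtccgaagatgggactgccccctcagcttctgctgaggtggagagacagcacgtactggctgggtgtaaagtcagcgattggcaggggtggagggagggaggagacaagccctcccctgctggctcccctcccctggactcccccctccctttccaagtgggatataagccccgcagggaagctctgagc
Chgb: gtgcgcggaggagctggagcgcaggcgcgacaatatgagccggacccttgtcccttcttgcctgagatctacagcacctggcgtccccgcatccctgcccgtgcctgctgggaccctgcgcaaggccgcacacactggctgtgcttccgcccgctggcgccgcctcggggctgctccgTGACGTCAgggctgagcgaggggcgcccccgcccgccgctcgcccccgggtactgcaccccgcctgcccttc
Sct: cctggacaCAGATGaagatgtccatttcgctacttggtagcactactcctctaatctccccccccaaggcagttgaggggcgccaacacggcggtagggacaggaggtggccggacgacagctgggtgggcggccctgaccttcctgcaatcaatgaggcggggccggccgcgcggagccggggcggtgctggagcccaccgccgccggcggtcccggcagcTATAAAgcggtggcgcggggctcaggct
Tph1: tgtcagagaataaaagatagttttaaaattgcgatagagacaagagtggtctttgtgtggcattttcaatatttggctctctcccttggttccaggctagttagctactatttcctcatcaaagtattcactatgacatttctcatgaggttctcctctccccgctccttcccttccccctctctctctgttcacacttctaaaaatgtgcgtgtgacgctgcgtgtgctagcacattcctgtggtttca
The 10 genes had 13 windows, since Pyy, Insl5 and Tph1 had 2 starts each. CAGATG stood in 4 of the 13, 1 each of Gcg, Insl5, Sct and Cck, against 14.4% of the 32851 promoter windows of the same length in the table. TATAAA stood in 4 of the 13, of Gcg, Insl5 (both starts) and Sct, against 12.4% of windows. TGACGTCA stood in 2 of the 13, of Chgb and Sst, against 1.55% of windows. The motifs do not overlap one another in these windows. A match is a description of the letters only.

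The question for each hormone was whether its transcript was raised at day 4 and lower again at day 6. Differences were tested on log2(signal + 16) with limma over all 12463 genes, with a Benjamini-Hochberg adjusted p of 0.05 or less as the threshold, and errors of log2 changes are SE. Insl5 alone among the 10 passed both the day 4 against day 0 and the day 6 against day 4 comparison. Gcg and Cck passed only the first, Sst only the second, and Pyy, Chga and Neurod1 passed in none of the 5 comparisons of days. Tph1, Sct and Chgb were lower at day 4 than at day 2. In a bulk sample, fewer cells of a type and less RNA per cell cannot be told apart.

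**Figure D1:**
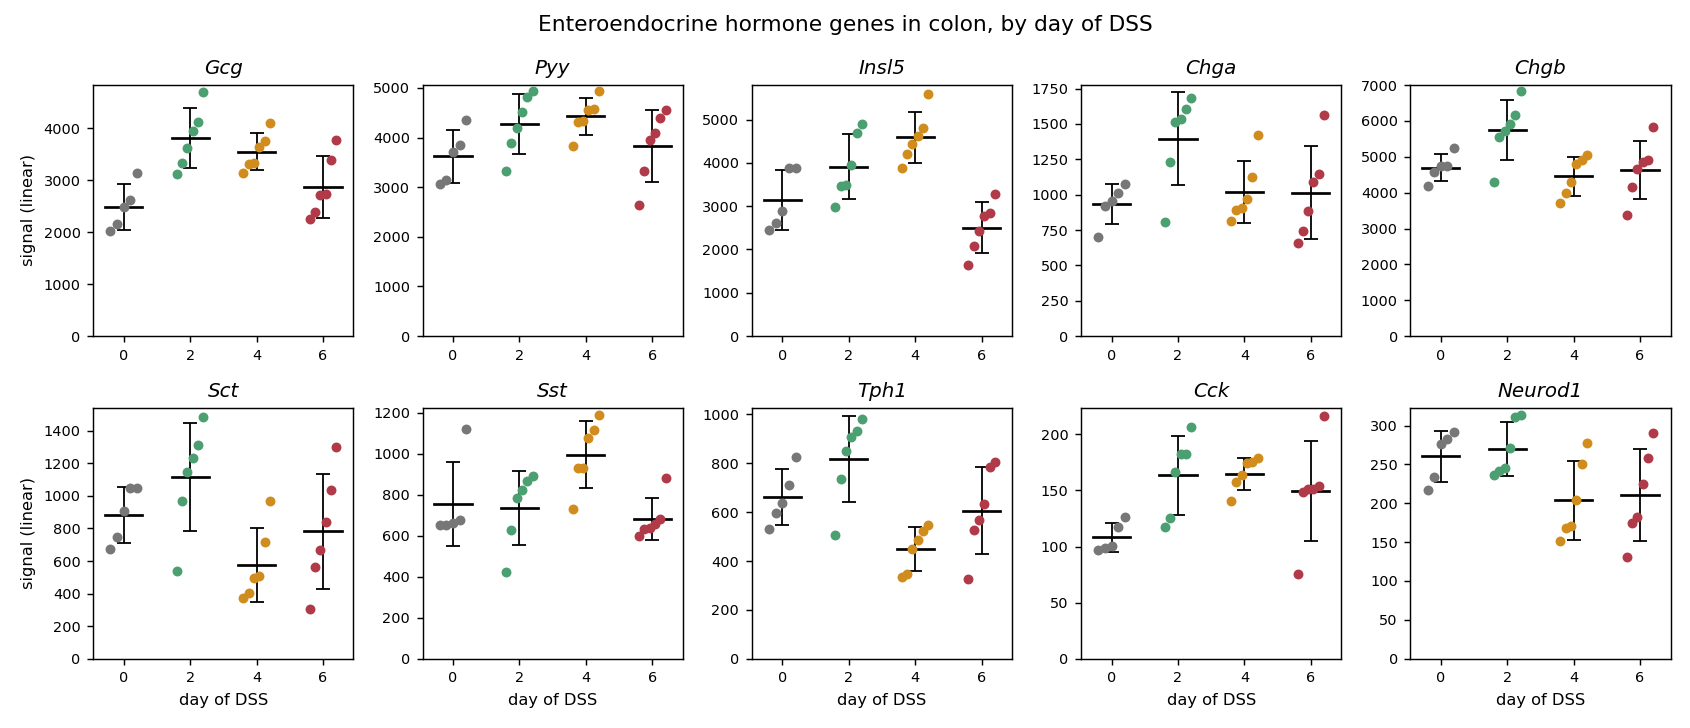
Signal intensity on a linear scale (vertical axes, scaled separately for each gene) of the 10 genes against day of DSS; each point is 1 animal, and bars are the mean with SD (n = 5 at day 0, n = 6 later). Insl5 is the gene whose day 6 animals (1632 to 3285) all lie below its day 4 animals (3873 to 5603).

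In numbers, 0 of 10 genes passed limma's test at day 2 against day 0, where 0.0802% of all genes tested passed. The lowest adjusted p there was that of Gcg (0.0617). At day 4 against day 0, 3 were higher and 0 lower, with 16.4% of all genes passing. The share of all genes that were higher there was 12.1%. Day 6 against day 0 had 0 of the 10 pass by limma, beside 32.5% of all genes, with the lowest adjusted p for Insl5 and Cck (0.118 for each). At day 4 against day 2, 3 were lower, beside 13.6% of all genes in either direction and 4.12% lower. Between day 6 and day 4, 2 were lower at day 6, beside 22.8% in either direction and 13.7% lower. The median log2 change of the 10 genes was 0.28 at day 2 and 0.21 at day 4 against day 0, and -0.11 at day 6 against day 4. The medians over all genes tested in those comparisons were 0.01, 0.06 and -0.03. Comparisons that name day 0 share its 5 arrays, and those that name day 4 share its 6 arrays.

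Insl5 encodes a peptide of colonic L cells that acts on the receptor Rxfp4. Its signals at day 0 were 2459.9, 2604, 2891, 3882 and 3883. They lay between 2979 and 4888 at day 2 (median 3719), between 3873 and 5603 at day 4 (median 4534), and between 1632 and 3285 at day 6 (median 2601). The day 4 animals were nearly all above the day 0 animals, with the lowest of day 4 just under the 2 highest of day 0, and the day 6 animals lay wholly below those of day 4. The mean was 4592 ± 592 at day 4 (SD, n = 6), against 3144 ± 692 at day 0 (SD, n = 5), a log2 change of 0.56 ± 0.16 (adjusted p = 0.0193). The day 6 mean was 2508 ± 590.3 (SD, n = 6), against 4592 ± 592 at day 4, a log2 change of -0.89 ± 0.15 (adjusted p = 0.000197). Day 6 was thus at 0.538 of day 4, and without overlap, as were 4.49% of all genes in that direction. Against day 0, day 6 differed by -0.33 ± 0.16 (adjusted p = 0.118). The order of the day means was day 6, day 0, day 2 and day 4, and none of the 3 neighbouring pairs in that order passed the test. Without day 0 mouse 1 or mouse 5 the day 4 rise no longer passed (adjusted p = 0.0617 and 0.0576), and without day 6 mouse 3 the day 6 level passed against day 0 (adjusted p = 0.0485). The day 6 fall passed without each of the 23 arrays in turn, with log2 changes from -0.98 to -0.78.

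Gcg, the glucagon gene, had its highest mean at day 2, and Insl5 at day 4. Neither gene passed limma's test at day 4 against day 2 (adjusted p = 0.649 for Gcg and 0.296 for Insl5). The signals of Gcg were 2015, 2161, 2495, 2619 and 3142 at day 0. They ran between 3115 and 4703 at day 2 (median 3791), between 3138 and 4111 at day 4 (median 3491), and between 2250.3 and 3774 at day 6 (median 2722). Only day 0 mouse 4 reached into the range of days 2 and 4, and the day 6 animals spread over both. Day 4 averaged 3552 ± 357 (SD, n = 6), against 2486 ± 440.1 at day 0 (SD, n = 5), a log2 change of 0.52 ± 0.13 (adjusted p = 0.00797). Day 2 averaged 3809 ± 576 (SD, n = 6) and differed from day 0 by 0.62 ± 0.13, which missed the threshold (adjusted p = 0.0617). That day 2 difference passed when day 0 mouse 4 (adjusted p = 0.0191) or day 6 mouse 1 (adjusted p = 0.0419) was left out. Day 6 averaged 2874 ± 592 and differed from day 4 by -0.32 ± 0.12 (adjusted p = 0.0612). The day 6 difference passed when mouse 4 of day 0 (adjusted p = 0.0491), or mouse 1 (0.0173) or mouse 7 (0.0398) of day 6, was left out. The order of the means was day 0, day 6, day 4 and day 2, and no neighbouring pair in it passed.

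Pyy encodes peptide YY, which slows gut motility and curbs appetite. Its means were 3620 ± 532 at day 0 (SD, n = 5), and 4277 ± 610 at day 2, 4426 ± 371 at day 4 and 3828 ± 718 at day 6 (SD, n = 6 each). The animals of every pair of days overlapped. Day 4 against day 0 gave 0.30 ± 0.12 (95% interval 0.04 to 0.55, adjusted p = 0.104), and day 6 against day 4 gave -0.23 ± 0.12 (95% interval -0.47 to 0.02, adjusted p = 0.173). Taken against Pyy on the same array, a comparison chosen after the values were seen, Insl5 was lower at day 6 than at day 4 (log2 -0.67 ± 0.12, adjusted p = 0.000222, with 11.7% of all genes passing), while Gcg differed by -0.09 ± 0.17 (adjusted p = 0.736).

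**Figure D2:**
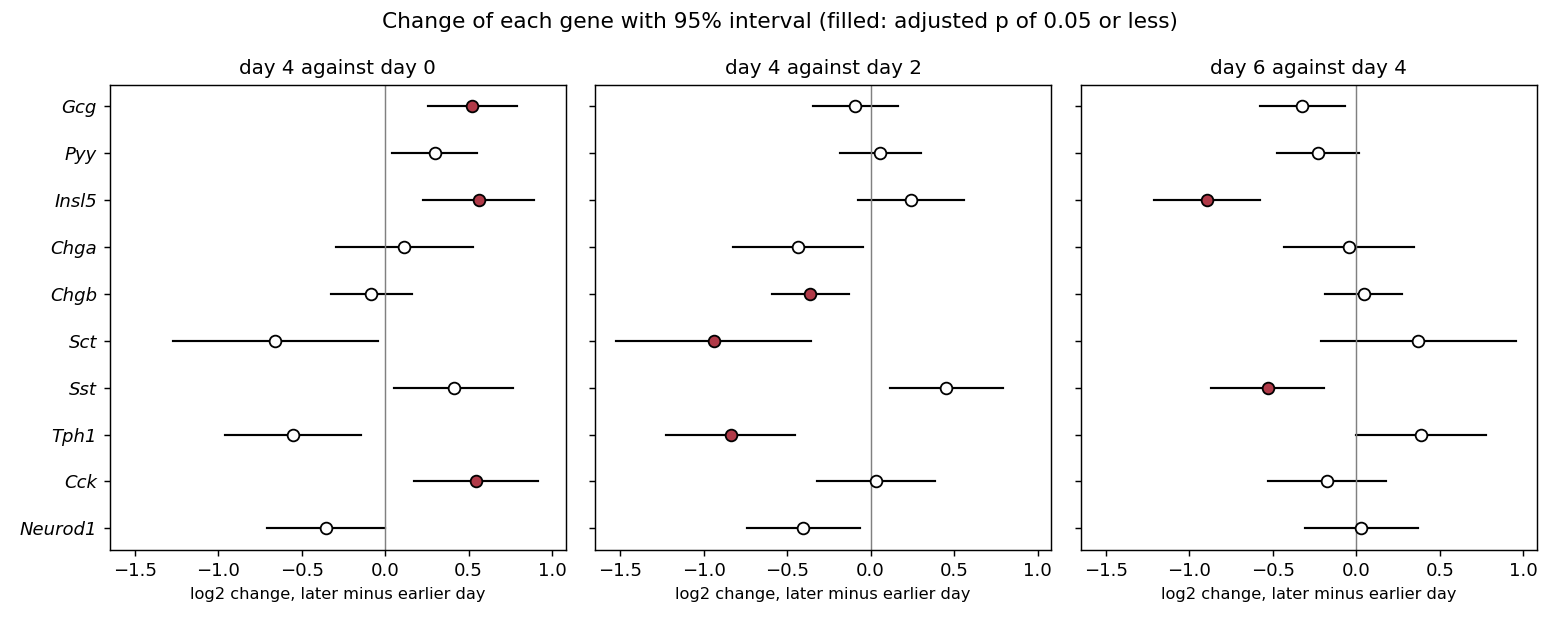
Log2 change of each gene (horizontal axes, later minus earlier day) with its 95% interval for day 4 against day 0, day 4 against day 2 and day 6 against day 4; filled points have an adjusted p of 0.05 or less. Gcg, Insl5 and Cck are filled on the right of zero in the first panel, Chgb, Sct and Tph1 on the left in the second, and Insl5 and Sst on the left in the third.

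Tph1, Sct and Chgb had their highest means at day 2 and their lowest at day 4, although none of them passed at day 2 against day 0. Tph1 encodes the tryptophan hydroxylase of serotonin synthesis in enterochromaffin cells. Its signals at day 0 were 531, 595, 639, 711 and 827. They lay between 505 and 981 at day 2 (median 879.8), between 336 and 547 at day 4 (median 468), and between 325 and 804 at day 6 (median 599). All but 1 of the day 2 animals were above every day 4 animal, the exception being day 2 mouse 6. Day 4 averaged 448 ± 89.1, against 819 ± 176 at day 2 (SD, n = 6 each), a log2 change of -0.84 ± 0.19 (adjusted p = 0.00792). Against day 0, day 4 gave -0.55 ± 0.20 (adjusted p = 0.0571), which passed when mouse 2 of day 0, mouse 6 of day 2, mouse 8 of day 4, or mouse 3 or 7 of day 6 was left out (adjusted p from 0.0256 to 0.0499). Day 6 against day 4 gave 0.39 ± 0.19 (adjusted p = 0.142), and 0.55 without day 6 mouse 3 (adjusted p = 0.0175).

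Sct encodes secretin, which enterochromaffin and other enteroendocrine cells make. Its signals at day 0 were 674, 746, 905, 1047 and 1052. They lay between 536 and 1483 at day 2 (median 1190.0), between 373 and 970.3 at day 4 (median 500.4), and between 305 and 1300.0 at day 6 (median 752). The animals spread widely within each DSS day, the highest of day 6 standing at 4.26 times the lowest. Day 4 averaged 578 ± 227, against 1114 ± 331 at day 2 (SD, n = 6 each), a log2 change of -0.94 ± 0.28 (adjusted p = 0.0314). The call ended without any 1 of day 2 mice 7, 8, 17 and 52 and day 4 mice 1, 3 and 4 (adjusted p up to 0.0873).

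Chgb had a bright probe set, between the 95.4th and the 98.1th percentile of its array. Its mean was 4457 ± 545 at day 4, against 5745 ± 846 at day 2 (SD, n = 6 each), a log2 change of -0.36 ± 0.11 (adjusted p = 0.036). At day 0 it was 4698 ± 379 (SD, n = 5) and at day 6 4633 ± 818 (SD, n = 6). The day 4 call ended without any 1 of day 2 mice 1, 7, 8, 17 and 52 and day 4 mice 1, 3, 4 and 6 (adjusted p up to 0.102), and with quantile normalization (0.0569) or median centring (0.0504). Chga, the other chromogranin, averaged 1019 ± 222 at day 4, against 1397 ± 326 at day 2 (SD, n = 6 each), a log2 change of -0.43 ± 0.19 (adjusted p = 0.127). Day 2 mouse 6 had the lowest day 2 signal of Chga (808), Chgb (4284), Sct, Sst (421) and Tph1, but the highest of Pyy (4940) and Insl5 (4888). That array also carried pancreatic RNA, and without it Chga passed (log2 -0.58, adjusted p = 0.0359). The part of the pancreatic RNA in these low values was not tested.

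Sst encodes somatostatin, an inhibitor of hormone release made by D cells and by some enteric neurons. Its signals at day 0 were 652, 654, 664, 677 and 1121. They lay between 421 and 891 at day 2 (median 803), between 732 and 1186 at day 4 (median 1004), and between 600.1 and 882 at day 6 (median 648). A single day 6 animal, mouse 3, reached above the lowest day 4 animal. Day 6 averaged 682 ± 102, against 995 ± 164 at day 4 (SD, n = 6 each), a log2 change of -0.53 ± 0.16 (adjusted p = 0.0215). Without day 4 mouse 3 that call was lost (adjusted p = 0.053). Day 4 against day 0 gave 0.41 ± 0.17 (adjusted p = 0.106), and 0.56 without day 0 mouse 1, the animal at 1121 (adjusted p = 0.0271). It also passed without day 2 mouse 6 (adjusted p = 0.0498). Day 4 against day 2 gave 0.45 ± 0.16 (adjusted p = 0.0682), and passed when mouse 1 of day 0 (adjusted p = 0.0443), mouse 8 of day 2 (0.0491) or mouse 7 of day 4 (0.0331) was left out.

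Cck encodes cholecystokinin, which is best known from I cells of the small intestine and from neurons. Its probe set was dim in colon, between the 41.5th and the 61.2th percentile of its array. Signals at day 0 were 97.2, 98.7, 101, 118 and 126. They lay between 117 and 207 at day 2 (median 174), between 141 and 179 at day 4 (median 169), and between 75.5 and 217 at day 6 (median 151). Every day 4 animal was above every day 0 animal, as for 7.61% of all genes. Day 4 averaged 165 ± 14.2 (SD, n = 6), against 108 ± 13.1 at day 0 (SD, n = 5), a log2 change of 0.55 ± 0.18 (adjusted p = 0.0392). The adjusted p rose to as much as 0.084 when any 1 of day 0 mice 1, 2, 3 and 5 and day 4 mice 1, 3, 6, 7 and 8 was left out. The call was also lost with quantile normalization (adjusted p = 0.0628), median centring (0.0685) or no filter on low signal (0.0605). Day 6 against day 0 gave 0.37 ± 0.18 (adjusted p = 0.118), and 0.53 without day 6 mouse 3, the lowest of its day (adjusted p = 0.00865).

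Neurod1 encodes a basic helix-loop-helix factor of enteroendocrine differentiation. On its brighter probe set it averaged 204 ± 50.6 at day 4 (SD, n = 6), against 260.3 ± 32.9 at day 0 (SD, n = 5), a log2 change of -0.35 ± 0.17 (95% interval -0.71 to 0.00044, adjusted p = 0.165). The second probe set gave 200.3 ± 33.4 at day 4, against 189 ± 30.4 at day 0, a log2 change of 0.07 ± 0.14 (adjusted p = 0.762). The 2 probe sets disagree in sign, and neither passed.

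The 10 genes were also set against the mean of 16 pan-epithelial genes on the same array (Epcam, Cdh1 and 14 others). Of these 16 genes, 0 were higher and 2 lower at day 4 against day 0, beside 4.34% of all genes lower. At day 6 against day 0, 0 were higher and 6 lower, beside 14.4% of all genes lower and 32.5% in either direction. Relative to them, 5 hormone genes were higher at day 4 than at day 0, where 20.8% of all genes passed and 19.2% were higher. They were Gcg (0.66 ± 0.14, adjusted p = 0.00372), Insl5 (0.70 ± 0.16, adjusted p = 0.00518), Pyy (0.43 ± 0.12, adjusted p = 0.0149), Cck (0.68 ± 0.20, adjusted p = 0.0197) and Sst (0.54 ± 0.19, adjusted p = 0.0408). Without day 0 mouse 3, Cck and Sst (adjusted p = 0.113) no longer passed and 3 genes were left. Sst was also lost without any 1 of day 0 mice 2, 4 and 5 and day 4 mice 1, 3, 4 and 8 (adjusted p from 0.0542 to 0.0992). Gcg (0.38 ± 0.14, adjusted p = 0.044) and Cck (0.55 ± 0.20, adjusted p = 0.0353) were higher at day 6 than at day 0, beside 35.3% of all genes in either direction and 29.8% higher. That count of 2 was 0 when mouse 1, 2 or 3 of day 0 or mouse 21 of day 6 was left out, and 1 for mouse 5 of day 0 or mouse 1, 4, 7 or 29 of day 6. The 1 gene without mouse 7 of day 6 was Pyy (log2 0.36, adjusted p = 0.00988), with Gcg (adjusted p = 0.0909) and Cck (adjusted p = 0.0886) both lost. On that scale Insl5 was lower at day 6 than at day 4 (log2 -0.85 ± 0.15, adjusted p = 0.000436) and the other 9 genes did not pass, beside 15.4% of all genes in either direction and 7.33% lower. The count was 2 when mouse 1 of day 0, mouse 6 of day 2 or mouse 7 of day 4 was left out, with Sst lower beside Insl5 each time. It was 4 when mouse 3 of day 6 was left out, with Insl5 and Sst lower but Sct (log2 0.67, adjusted p = 0.04) and Tph1 (0.61, adjusted p = 0.00645) higher at day 6.

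**Figure D3:**
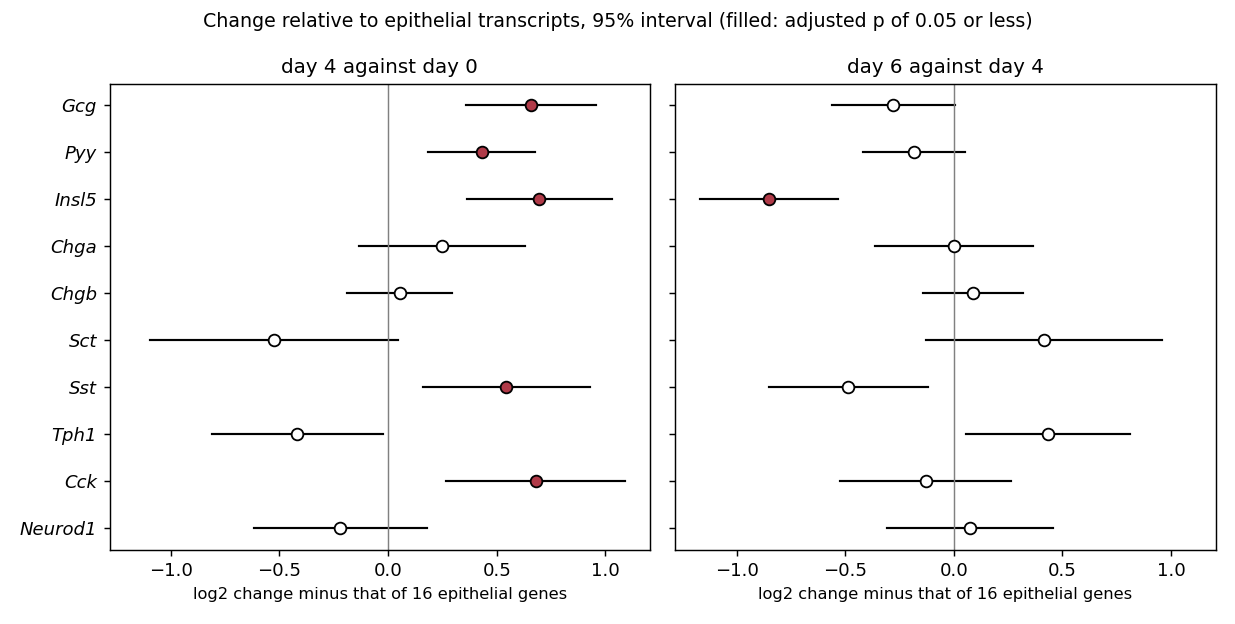
Log2 change of each gene minus the mean log2 change of 16 epithelial genes on the same arrays (horizontal axes, later minus earlier day), with 95% intervals; filled points have an adjusted p of 0.05 or less. Gcg, Pyy, Insl5, Sst and Cck are filled for day 4 against day 0, and Insl5 alone for day 6 against day 4.

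Set against Chga on the same array, none of the other 9 genes passed at day 4 against day 0, day 6 against day 0 or day 6 against day 4. The shares of all genes that passed were 0.409%, 6.23% and 3.07%. At day 4 against day 0 the lowest adjusted p by limma were those of Sct (log2 -0.77 ± 0.23, adjusted p = 0.161) and Tph1 (-0.67 ± 0.22, adjusted p = 0.243). The difference of Insl5 from Chga at day 6 against day 4 was -0.85 ± 0.26 (adjusted p = 0.0661), and it passed when mouse 6 of day 2, mouse 8 of day 4 or mouse 3 of day 6 was left out. Chga itself varied by 15.4% to 32.4% of its mean within a day.

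Animals of the same day differed in a patterned way. After the day means were taken out, Insl5 and Pyy varied together over the 23 arrays (r = 0.82). A second set held Chga, Chgb, Tph1 and Sct, whose 6 pairs had r from 0.70 to 0.90, the highest between Chgb and Tph1. Cck varied with Tph1 (r = 0.81), Chgb (r = 0.71) and Sct (r = 0.70). Between Insl5 or Pyy and these 5 genes r lay from 0.02 (Pyy with Chga) down to -0.58 (Insl5 with Sct). Gcg, although an L cell gene, stood closer to Cck (r = 0.54) than to Pyy (r = 0.05) or Insl5 (r = 0.15). Sst followed none of the others (r from -0.35 to 0.27). These are descriptions over arrays that share day, scaling and tissue makeup.

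**Figure D4:**
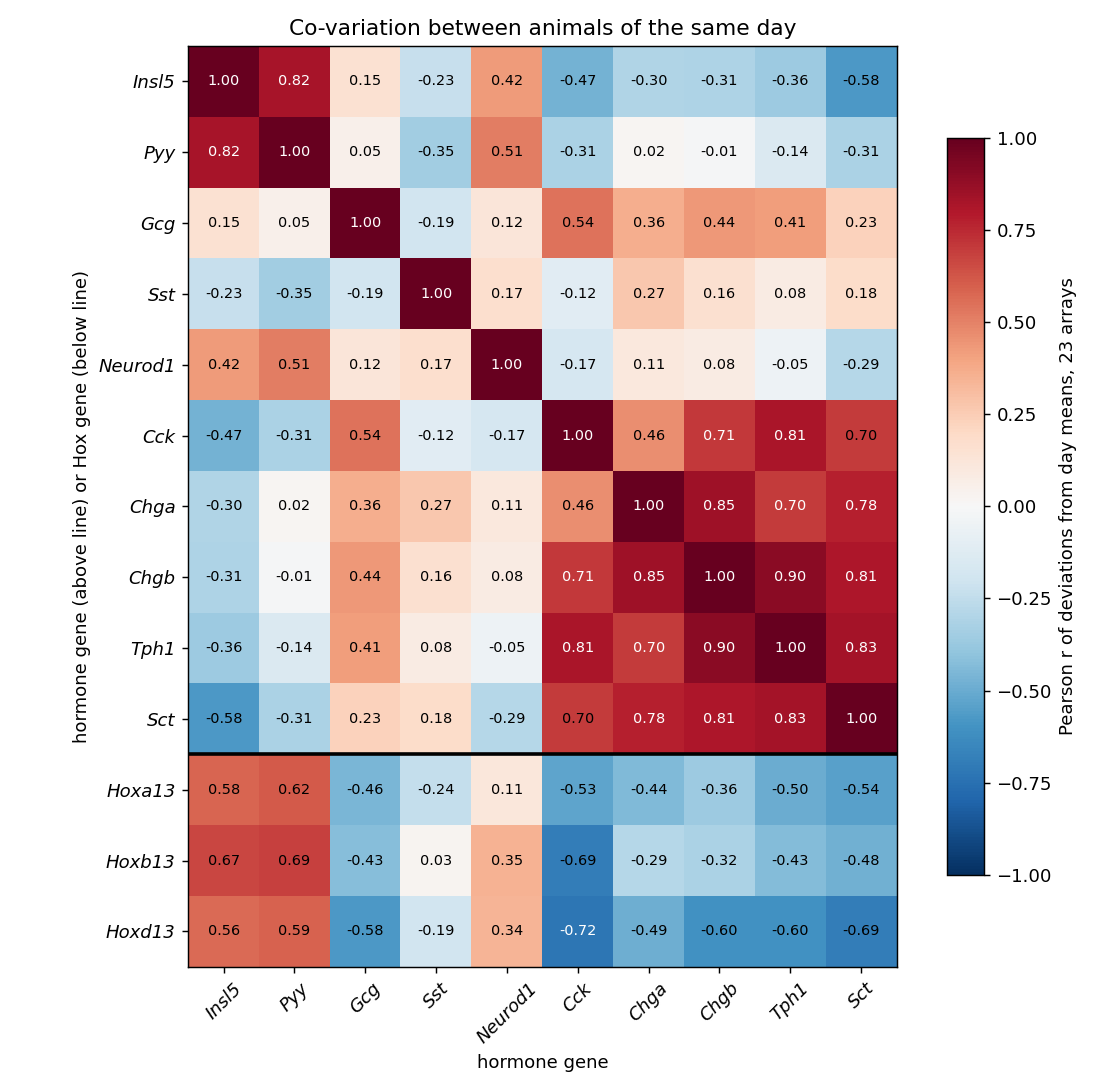
Pearson r between the 10 genes, and between 3 posterior Hox genes and the 10 genes (below the line), of log2 deviations from the day means over 23 arrays; red is positive and blue negative. Insl5 with Pyy (0.82) forms one red block and Chga, Chgb, Tph1, Sct and Cck (0.46 to 0.90) the other.

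Posterior Hox genes, which are expressed towards the hind end of the gut, followed the same split and were chosen after their values were seen. Hoxb13 had r = 0.69 with Pyy and r = 0.67 with Insl5, against r = -0.69 with Cck, r = -0.48 with Sct and r = -0.43 with Tph1. Hoxd13 had r = 0.59 with Pyy and r = 0.56 with Insl5, against r = -0.72 with Cck and r = -0.69 with Sct. Gcg, although an L cell gene, had r = -0.43 with Hoxb13 and r = -0.58 with Hoxd13. Hoxb13 also moved with day. It averaged 1619 ± 1315 at day 6 (range 286 to 3703), against 5048 ± 525 at day 4 (range 4367 to 5884, SD, n = 6 each), a log2 change of -2.08 ± 0.38 (adjusted p = 0.00037). Hoxd13 was lower too (-1.51 ± 0.40, limma adjusted p = 0.00773), and Hoxa13 did not pass (-0.56 ± 0.22, adjusted p = 0.0637). The labels do not state the distance along the colon at which each animal was sampled, and its part in the fall of Insl5 was not tested.

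The nearest other transcripts by the same measure differed between the 2 sets. Both Pyy (r = 0.86) and Insl5 (r = 0.81) had 2010106E10Rik as the nearest gene. Sct was followed most closely by Cyp2c65, a cytochrome P450 (r = 0.94), Car12, a carbonic anhydrase (r = 0.94), and B4galnt2, a glycosyltransferase (r = 0.93). The nearest to Tph1 was Stard3nl (r = 0.87), to Chgb AW047730 (r = 0.85) and to Chga Cyp2d26 (r = 0.84). The nearest to Gcg was Mfsd12 (r = 0.75) and to Sst D130017N08Rik (r = 0.77).

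Other genes of the hormone cells were read from lists. Of 22 genes for hormone processing and secretory granules that were tested, 8 were higher and 0 lower at day 4 against day 0, beside 12.1% of all genes higher and 4.34% lower, with a median log2 change of 0.36 against 0.06 over all genes. Secretogranin 2 (Scg2), a granule protein, averaged 1181 ± 197 at day 4 (SD, n = 6), against 674 ± 74.2 at day 0 (SD, n = 5), a log2 change of 0.79 ± 0.14 (adjusted p = 0.000573). Resp18 (0.74 ± 0.13, adjusted p = 0.000815) and Scg3 (0.73 ± 0.15, adjusted p = 0.00257), also granule proteins, did the same without overlap between the days. At day 6 against day 4, 5 of the 22 were lower, Scg2 among them (-0.57 ± 0.13, adjusted p = 0.00248), and 1 (Gch1) was higher, beside 13.7% of all genes lower and 9.07% higher. Neurons make these granule proteins too, and of 17 enteric neuron markers 16 were higher at day 4 than at day 0 (median log2 change 0.69), beside the same 12.1% of all genes. The summed signal of the neuron markers was 7948 to 11820.0 at day 4, against 5776 to 6211 at day 0. Their part in the rise of the granule genes, or of Sst and Cck, was not tested.

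Of the 9 tested transcription factors of the lineage, 1 was higher and 1 lower at day 4 against day 0, where 16.4% of all genes passed. At day 6 against day 0, 1 was higher and 2 were lower, beside 18.1% of all genes higher and 14.4% lower. Hmgn3, a nucleosome-binding protein, averaged 1014 ± 291 at day 4 (SD, n = 6), against 516 ± 56.3 at day 0 (SD, n = 5), a log2 change of 0.91 ± 0.17 (adjusted p = 0.00111). Foxa2, which acts with Foxa1 in the enteroendocrine lineage, averaged 483 ± 154 at day 6 (SD, n = 6), against 1196 ± 154 at day 0 (SD, n = 5), a log2 change of -1.32 ± 0.17 (adjusted p = 2.33e-06). At day 4 against day 0 it did not pass (log2 -0.44 ± 0.17, adjusted p = 0.0681), so it was not the 1 lower there. Foxa2 is also expressed in goblet cells, where 5 of 14 markers were lower and 0 higher at day 6 than at day 0, beside 14.4% of all genes lower and 32.5% in either direction. Insm1, Isl1 and Nkx2-2, factors closer to the endocrine fate, did not pass in any comparison with day 0.

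Around serotonin, Ddc, Slc6a4, Maoa and Htr4 were lower at day 6 than at day 0, and Gch1 and Htr3a were higher. Tph1 and the vesicular transporter gene Slc18a1 did not pass in that comparison. Ddc, the decarboxylase of the second step, averaged 1420.1 ± 370 at day 6 (SD, n = 6), against 3249 ± 248 at day 0 (SD, n = 5), a log2 change of -1.22 ± 0.12 (adjusted p = 1.65e-07). Slc6a4, the serotonin transporter that takes serotonin into epithelial cells, had its highest mean at day 4 and its lowest at day 6. It averaged 144 ± 97.0 at day 6, against 538 ± 64.6 at day 4 (SD, n = 6 each), a log2 change of -1.99 ± 0.26 without overlap (adjusted p = 1.44e-05). Against day 0 the change was -1.47 ± 0.27 (adjusted p = 0.000226). Gch1, whose enzyme starts the synthesis of the hydroxylase's cofactor, averaged 1434 ± 322 at day 6, against 745 ± 199 at day 4 (SD, n = 6 each), a log2 change of 0.94 ± 0.17 (adjusted p = 0.000257). Slc18a1 averaged 131 ± 23.6 at day 6 (SD, n = 6), against 131 ± 20.4 at day 0 (SD, n = 5). The receptor gene Htr4 fell to 251 ± 108 at day 6 (SD, n = 6), against 712 ± 71.3 at day 0 (SD, n = 5, log2 change -1.53 ± 0.20, adjusted p = 4.35e-06). Htr3a, a receptor channel of neurons, rose to 388 ± 44.8 at day 4 (SD, n = 6), against 241 ± 49.6 at day 0 (SD, n = 5, log2 change 0.66 ± 0.11, adjusted p = 0.000598). At day 6 Htr3a was still higher than at day 0 (log2 0.64 ± 0.11, limma adjusted p = 0.000165). Maoa, a clearance gene, was lower at day 6 than at day 0 (log2 -0.44 ± 0.12, limma adjusted p = 0.0064). Of the 9 tested genes for hormone and serotonin receptors and clearance, 5 were lower and 1 higher at day 6 against day 0, beside 14.4% of all genes lower and 18.1% higher.

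**Figure D5:**
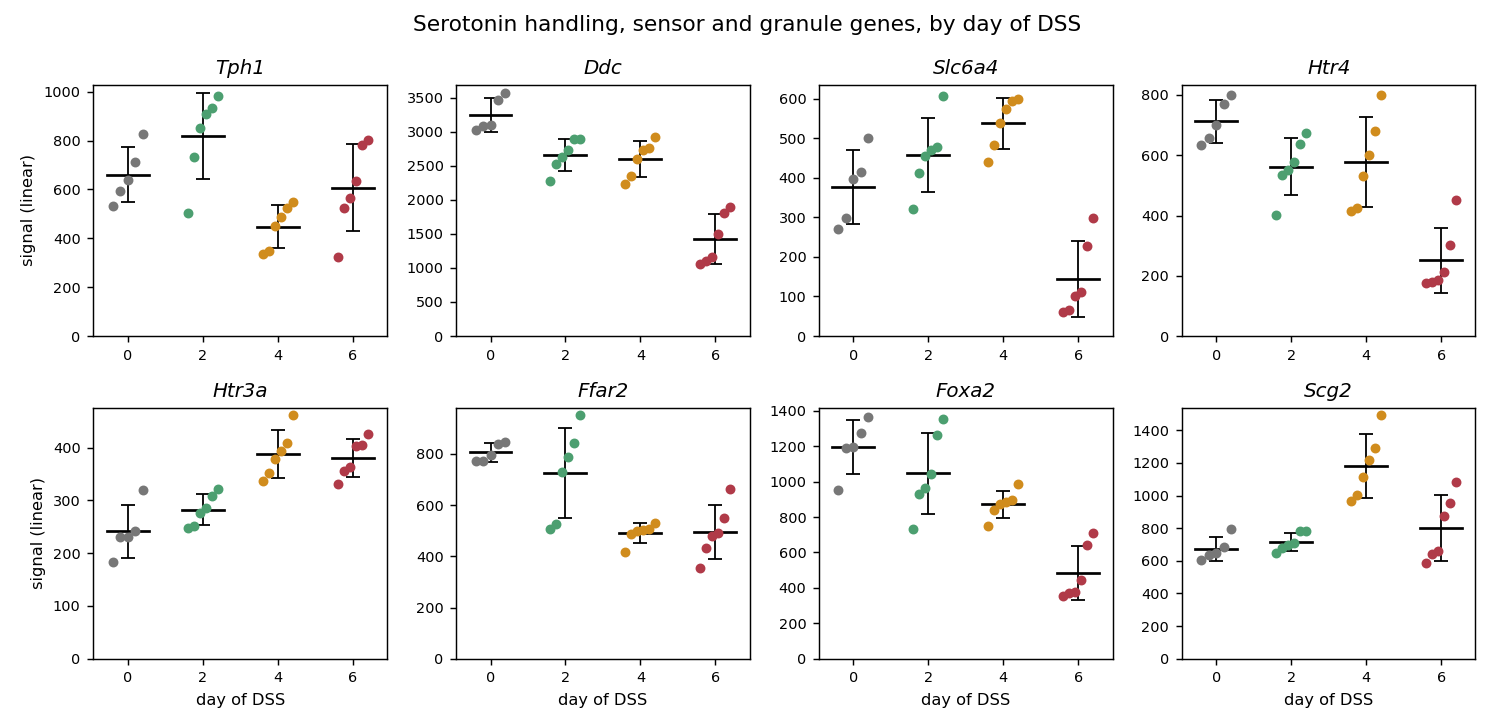
Signal intensity on a linear scale (vertical axes, scaled separately) of Tph1, Ddc, Slc6a4, Htr4, Htr3a, Ffar2, Foxa2 and Scg2 against day of DSS; points are animals, and bars are the mean with SD (n = 5 at day 0, n = 6 later). Ddc, Slc6a4, Htr4 and Foxa2 have their lowest means at day 6, and Scg2 its highest at day 4.

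Among 9 nutrient and metabolite sensors, 1 was lower and 1 higher at day 4 against day 0, again beside 16.4% of all genes. Ffar2, a receptor for short-chain fatty acids on L cells and on neutrophils, averaged 491 ± 38.4 at day 4 (SD, n = 6), against 806 ± 35.7 at day 0 (SD, n = 5), a log2 change of -0.70 ± 0.14 without overlap (adjusted p = 0.00202). Its change thus ran against those of Gcg and Insl5 at the same day. Cnr1, a cannabinoid receptor of enteric neurons, averaged 444 ± 116 at day 4 (SD, n = 6), against 210.0 ± 30.0 at day 0 (SD, n = 5, adjusted p = 0.000655). Of 12 other gut peptide genes 3 were higher at day 4 than at day 0 and 0 lower, beside 12.1% of all genes higher and 4.34% lower. They were Vip (0.82 ± 0.13, adjusted p = 0.000343), Gal (0.75 ± 0.13, adjusted p = 0.000625) and Penk (0.72 ± 0.12, adjusted p = 0.000371), which are chiefly neuronal peptides.

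Several features of the arrays moved with these results. Pancreatic RNA stood out on day 2 mouse 6 (Prss2, a trypsinogen, at 33090.0) and day 6 mouse 1 (Prss2 at 9828). Ins2, the insulin RNA of pancreatic islets, whose cells also make Gcg and Sst, was highest on day 2 mouse 6 too (383, with 123 or less on every other array). Iapp, on the list of islet genes and also on that of other gut peptide genes, was the lowest of its day on that array (86.6, against 212 to 585 on the other day 2 arrays). Iapp was lower at day 4 than at day 2 (log2 -1.40 ± 0.45, limma adjusted p = 0.0437), beside 4.12% of all genes lower. The part of islet RNA in Gcg and Sst was not tested. Krt10, a keratin of squamous epithelium, was 306 on day 2 mouse 8 and 349.8 on day 4 mouse 8, against 2537 or more at day 0. Acta1, of skeletal muscle, was low on the same arrays (474 and 351, against 3095 or more at day 0). The median of Krt10 was 2833, 4123, 9391.5 and 9596 at days 0, 2, 4 and 6. Of 11 squamous markers 5 were higher and 0 lower at day 6 than at day 0, beside 18.1% of all genes higher and 14.4% lower. The part of squamous and muscle RNA in the hormone results was not tested. With both pancreatic arrays left out, the 8 calls of the 5 comparisons all held and 3 more were made, for Gcg at day 6 against day 4 (log2 -0.41, adjusted p = 0.02), Chga at day 4 against day 2 and Tph1 at day 4 against day 0. With both arrays low in Krt10 left out, Cck (adjusted p = 0.0577) and Chgb (adjusted p = 0.0558) were lost and Tph1 at day 4 against day 0 passed (adjusted p = 0.0448). The log2 3′ to 5′ ratio of the beta-actin control probe sets averaged 0.43, 0.46, 0.61 and 0.51 at days 0, 2, 4 and 6, and the hybridization controls 11.21, 11.11, 10.77 and 10.66. The actin ratio did not overlap between day 0 (0.40 to 0.45) and day 4 (0.53 to 0.70). The hybridization controls at day 4 (10.57 to 10.92) lay below those of day 0 (11.12 to 11.32) and day 2 (10.95 to 11.235). In these comparisons a fit with that covariate cannot separate day from array quality, so its calls are descriptions only. With the hybridization controls as a covariate Insl5 at day 4 against day 0 was 0.31 (adjusted p = 0.58), whereas at day 6 against day 4 it was -0.96 (adjusted p = 0.000194). With the actin ratio as a covariate Cck at day 4 against day 0 was 0.03 (adjusted p = 0.973), Gcg 0.32 (adjusted p = 0.474) and Insl5 1.14 (adjusted p = 0.0385). In the same fit Sst at day 6 against day 4 was lost (-0.42, adjusted p = 0.205), while Pyy (-0.44, adjusted p = 0.034) and Tph1 (0.68, adjusted p = 0.0496) passed. Of the calls at day 4 against day 2, Sct (adjusted p = 0.0836) and Chgb (adjusted p = 0.112) were lost with the actin ratio, and Tph1 (adjusted p = 0.17), Sct (adjusted p = 0.376) and Chgb (adjusted p = 0.341) with the hybridization controls. With the hybridization controls Cck at day 4 against day 0 (adjusted p = 0.223) and Sst at day 6 against day 4 (adjusted p = 0.0521) were lost as well.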

How the data were processed

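The deposited values were the authors' signal intensities, 1 per probe set and array on a linear scale, made with MAS5 per the submitters' processing notes, with no version given. In these values the 2% trimmed mean was 500 on each of the 23 arrays, so no further scaling was applied. Precision is limited by the number of arrays. Of 45101 probe sets, 64 controls were left out, and 34945 had 1 gene symbol in the platform annotation.

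A probe set stayed in when 5 or more arrays had it above that array's own median. The kept probe set with the highest mean stood for its gene, which gave 12463 genes. Signals were taken as log2(signal + 16), a scale that understates changes of dim genes. The 4 days were fitted together with limma 3.58.1 in R 4.3.3 (lmFit, eBayes with trend, two-sided), Benjamini-Hochberg adjustment ran over all genes of a comparison, and the script was tested on simulated data. Fits relative to the mean of 16 epithelial genes, or to Chga, subtracted that value on each array. Nothing in the labels ties an animal to a cage or batch, and each array is 1 animal by its mouse number.

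The named genes were the 10 members, for each the 3 genes with the highest r of deviations from day means, and from each other list up to 3 genes per comparison with the largest change that passed, of which the text gives some. The list entries numbered 255 in 16 lists, and 230 matched. Members and lists were chosen with earlier results of these data known. Alternatives were the pseudocount, the filter, quantile normalization, median centring, the choice of probe set, the arrays in the fit, 2 covariates, robust eBayes, the mouse number as a block and leaving out arrays.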

Additional observations from a re-analysis of the deposited data

Results flagged for a closer look

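Within each day, every probe set of the 10 genes was searched for an animal far from the others by Dixon's test at the 95% level. Of 44 groups examined, 3 held such an animal, and chance gives about 1 in 20. Sst in day 0 mouse 1 had a signal of 1120.8, with the next highest day 0 animal at 677. Sst in day 6 mouse 3 stood at 882.25, with the next at 682, and the same animal had the lowest Cck of its day at 75.51, with the next at 149. Without day 6 mouse 3, Cck at day 6 against day 0 had a log2 change of 0.53 (adjusted p = 0.00865, limma), and 0.37 with it (adjusted p = 0.118).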

How the results depend on the processing

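The 10 genes were recomputed under 16 alternatives and without each array. Among the values of single genes, 3411 stayed on the same side of the threshold, 87 lost the call, 43 gained it and 0 reversed a call. The fall of Insl5 at day 6 against day 4 passed under every alternative run. Counts of hormone genes that passed moved as follows. At day 2 against day 0 the count was 0, but 1 with the stricter filter, with only those days in the fit or with the hybridization controls as a covariate, and 0 to 1 without single arrays. At day 4 against day 0 it was 3, but 5 with only those days in the fit (Pyy higher and Tph1 lower in addition), 1 with either covariate and 1 to 5 without single arrays. At day 6 against day 0 it was 0, and 0 to 2 without single arrays. At day 4 against day 2 it was 3, but 0 with the hybridization controls, 1 with the actin ratio, and 1 to 4 without single arrays. At day 6 against day 4 it was 2, but 1 with the hybridization controls, 3 with median centring (Gcg lower in addition), 3 with the actin ratio (Insl5 and Pyy lower, Tph1 higher, Sst lost), and 1 to 3 without single arrays. Relative to epithelial genes the counts without single arrays were 3 to 5 (day 4 against day 0), 0 to 2 (day 6 against day 0) and 1 to 4 (day 6 against day 4), and the count of 2 at day 6 against day 0 was 0 with no filter and 1 without both pancreatic arrays. Relative to Chga at day 6 against day 4 it was 1 with a pseudocount of 64, and 0 to 1 without single arrays. Shares of all genes under each of these settings are not given, so the counts do not tell the hormone genes apart from all genes. The causes were not tested. Where a covariate did not overlap between the days compared, its counts cannot separate day from array quality.

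Mouse numbers recur between days, and the animals were treated as unpaired. Of 17 pairs of arrays with the same number, 3 had a correlation of deviations over 0.1 (median 0.0458). Of 181 pairs with different numbers, 35 did (median 0.00325). The highest was day 2 mouse 8 with day 4 mouse 8 (r = 0.704), the 2 arrays low in Krt10. Pairs with different numbers reached at most 0.384. Whether some numbers mark linked animals was not tested. On the arrays that share numbers, the fit with the number as a block gave 1 hormone gene at day 4 against day 0, 0 at day 4 against day 2 and 1 (Insl5) at day 6 against day 4. The 1 at day 4 against day 0 was Sct, lower (log2 -1.02, adjusted p = 0.0242), while Gcg (adjusted p = 0.161), Insl5 (adjusted p = 0.0655) and Cck (adjusted p = 0.262) did not pass. On those arrays without the block the counts were 0, 0 and 1, again without the shares of all genes beside them.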
